A study of Mus musculus with 36 samples.

Results

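The genes described here are 10 genes of GABA neurons and interneurons, followed across brain RNA of 36 mice: Gad1, Gad2, Slc32a1, Pvalb, Sst, Vip, Npy, Cck, Lhx6 and Reln. They were taken as named rows of the deposited count table, 10 of 56980 genes, and all 10 were among the 25601 genes with enough counts to test. The mice, 37 to 45 days of age, either lacked Ndufs4 (KO) or were wild type (WT), and each was gavaged on 3 consecutive days with vehicle or with CP2. Ndufs4 encodes a subunit of complex I, the first enzyme of the respiratory chain, and CP2 inhibits that complex. The titles also carry the letter F or M, so that genotype, treatment and letter gave 8 groups. With the letter F, each combination of genotype and treatment held 5 mice. With the letter M, the WT vehicle and KO vehicle groups held 3 mice each and the WT CP2 and KO CP2 groups held 5 each. All groups thus shared the gavage. The labels do not describe the knockout further, and whether it affects all cells is not given in the sources used here. The tissue label is brain, and the design text names hippocampus and cortex. Libraries are called by the number in their titles, such as L201.

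Inhibitory neurons make GABA from glutamate with 2 decarboxylases, encoded by Gad1 and Gad2, and load it into synaptic vesicles with the transporter encoded by Slc32a1. Cortical and hippocampal interneurons fall into classes that are told apart by a calcium-binding protein (Pvalb) or by peptides and secreted proteins (Sst, Vip, Npy, Cck, Reln), and Lhx6 encodes a transcription factor of the Pvalb and Sst classes. Several of these genes are also active elsewhere: Gad1, Gad2 and Slc32a1 also mark striatal projection neurons, Pvalb marks Purkinje cells of the cerebellum, Npy marks hypothalamic neurons and Cck is made by many excitatory neurons. In bulk tissue, fewer cells of a type and less RNA per cell cannot be told apart.

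The starts of 4 genes are shown, because Cck, Vip and Pvalb are the members with a call below and Sst is the classic gene with a cyclic AMP response element. Each run is the 250 bases before the RefSeq start site in GRCm38.p6, 5′ to 3′ on the strand of the gene, with CGTCA on either strand (the core of that element) and TATAAA on the gene strand in capitals. They lie at chr9:121495695-121495944 on the minus strand for Cck, at chr10:5638968-5639217 on the plus strand for Vip, at chr15:78206401-78206650 on the minus strand for the first of 2 Pvalb starts, and at chr16:23890845-23891094 on the minus strand for Sst.
Cck: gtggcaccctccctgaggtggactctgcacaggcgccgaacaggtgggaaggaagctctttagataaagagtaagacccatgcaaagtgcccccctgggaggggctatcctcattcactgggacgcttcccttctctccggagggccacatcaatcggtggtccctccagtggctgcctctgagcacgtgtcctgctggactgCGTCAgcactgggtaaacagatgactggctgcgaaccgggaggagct
Vip: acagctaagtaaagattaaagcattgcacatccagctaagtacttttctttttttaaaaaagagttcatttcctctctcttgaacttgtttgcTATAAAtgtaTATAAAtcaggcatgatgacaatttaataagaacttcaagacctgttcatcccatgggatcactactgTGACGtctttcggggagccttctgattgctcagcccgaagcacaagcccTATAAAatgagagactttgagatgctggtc
Pvalb: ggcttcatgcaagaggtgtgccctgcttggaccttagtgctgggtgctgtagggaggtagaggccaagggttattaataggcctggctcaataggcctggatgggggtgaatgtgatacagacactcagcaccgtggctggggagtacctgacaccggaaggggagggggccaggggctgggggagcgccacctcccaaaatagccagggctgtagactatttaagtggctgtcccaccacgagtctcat
Sst: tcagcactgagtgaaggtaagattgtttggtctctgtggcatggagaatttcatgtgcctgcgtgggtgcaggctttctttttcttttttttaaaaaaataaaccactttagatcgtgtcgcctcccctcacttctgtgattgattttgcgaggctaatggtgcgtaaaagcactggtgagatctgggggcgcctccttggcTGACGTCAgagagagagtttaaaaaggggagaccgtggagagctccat
The Cck window holds 1 CGTCA, starting 47 bases before the start site. The Vip window holds 1 on the opposite strand, starting 79 bases before it, and 3 TATAAA runs. In Sst the overlapping matches on both strands form the palindrome TGACGTCA. The Pvalb window holds none of these letters. Over 32841 promoter windows of that length, 17.8% held CGTCA on either strand, 1.55% held TGACGTCA and 7.59% held TATAAA. All 10 genes were found in the promoter table, and a match is a description of letters, not of a factor's binding.

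Gene counts summed to between 46124548 and 88559920 per library, and 5.09% to 13.2% of counted reads fell outside annotated genes. Levels are given as CPM, read counts scaled to a common library size with TMM factors. Ndufs4 itself was lower in every KO library than in every WT library of the same letter and treatment. Its group means were 28.2 to 35.6 CPM in KO and 44.6 to 53.4 CPM in WT, so reads of the gene remained in KO. Xist was at 438 to 797 CPM in the 20 F libraries and at most 0.833 CPM in the M libraries other than L291 (KO CP2 M), which had 47.2 CPM. L291 had 80.8 CPM of the Y-linked Ddx3y, within the 61.8 to 84.4 CPM of the M libraries. The defining markers of cortex layers (272.3 to 397.1 CPM summed over 8 genes) and of hippocampal CA neurons (179 to 337 CPM over 5) were present in all libraries. Markers of regions outside the design text were also present: 8 striatal genes summed to 163 to 1010 CPM, with the highest values in L227 (KO CP2 F) and L228 (WT CP2 F), and 5 hypothalamic genes to 10.9 to 271 CPM. Sums were 140 to 465 CPM for 5 thalamic genes, 189 to 3400 CPM for 4 choroid plexus genes and 6.85 to 41.0 CPM for 4 olfactory bulb genes. On vehicle in M, the thalamic sum was 199 to 204 CPM in KO and 302 to 366 CPM in WT. The 4 cerebellar genes summed to 286 CPM in L201 and 59.4 CPM in L233, both KO CP2 F, and to 18.3 CPM in L278 (WT vehicle F). In the other 33 libraries they summed to between 1.22 and 7.65 CPM.

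Per kilobase of exon, Sst and Cck gave the most RNA in the 8 WT vehicle mice. Sst stood at 231 ± 35.9 CPM per kilobase (SD, n = 8) and Cck at 187 ± 37.7, and their ranges overlapped. Npy followed at 53.1 ± 10.1 and Pvalb at 46.5 ± 8.01. Slc32a1, Gad2 and Gad1 lay together at 41.3 ± 6.01, 41.3 ± 5.47 and 40.5 ± 3.45 CPM per kilobase. The ranges of these 5 overlapped over the 8 mice, which mix F and M. By letter, Npy had a mean of 59.98 CPM per kilobase in F and 41.56 in M. Means of Pvalb, Slc32a1, Gad2 and Gad1 were 38.80 to 49.61 CPM per kilobase in F and 41.25 to 45.54 in M. Npy thus had the highest mean of the 5 in F and not in M. Vip was lower at 7.20 ± 1.05, with no overlap with the genes above it. Reln at 3.91 ± 0.482 and Lhx6 at 3.00 ± 0.404 came last, and their ranges met between 3.44 and 3.47 CPM per kilobase. Within groups, Gad1 varied least of the 10, with an SD of 0.13 on the log2 scale. Npy varied most, with an SD of 0.48, above 98.2% of the 12054 genes with a mean of at least 5 CPM, and Pvalb was next at 0.35.

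**Figure D1:**
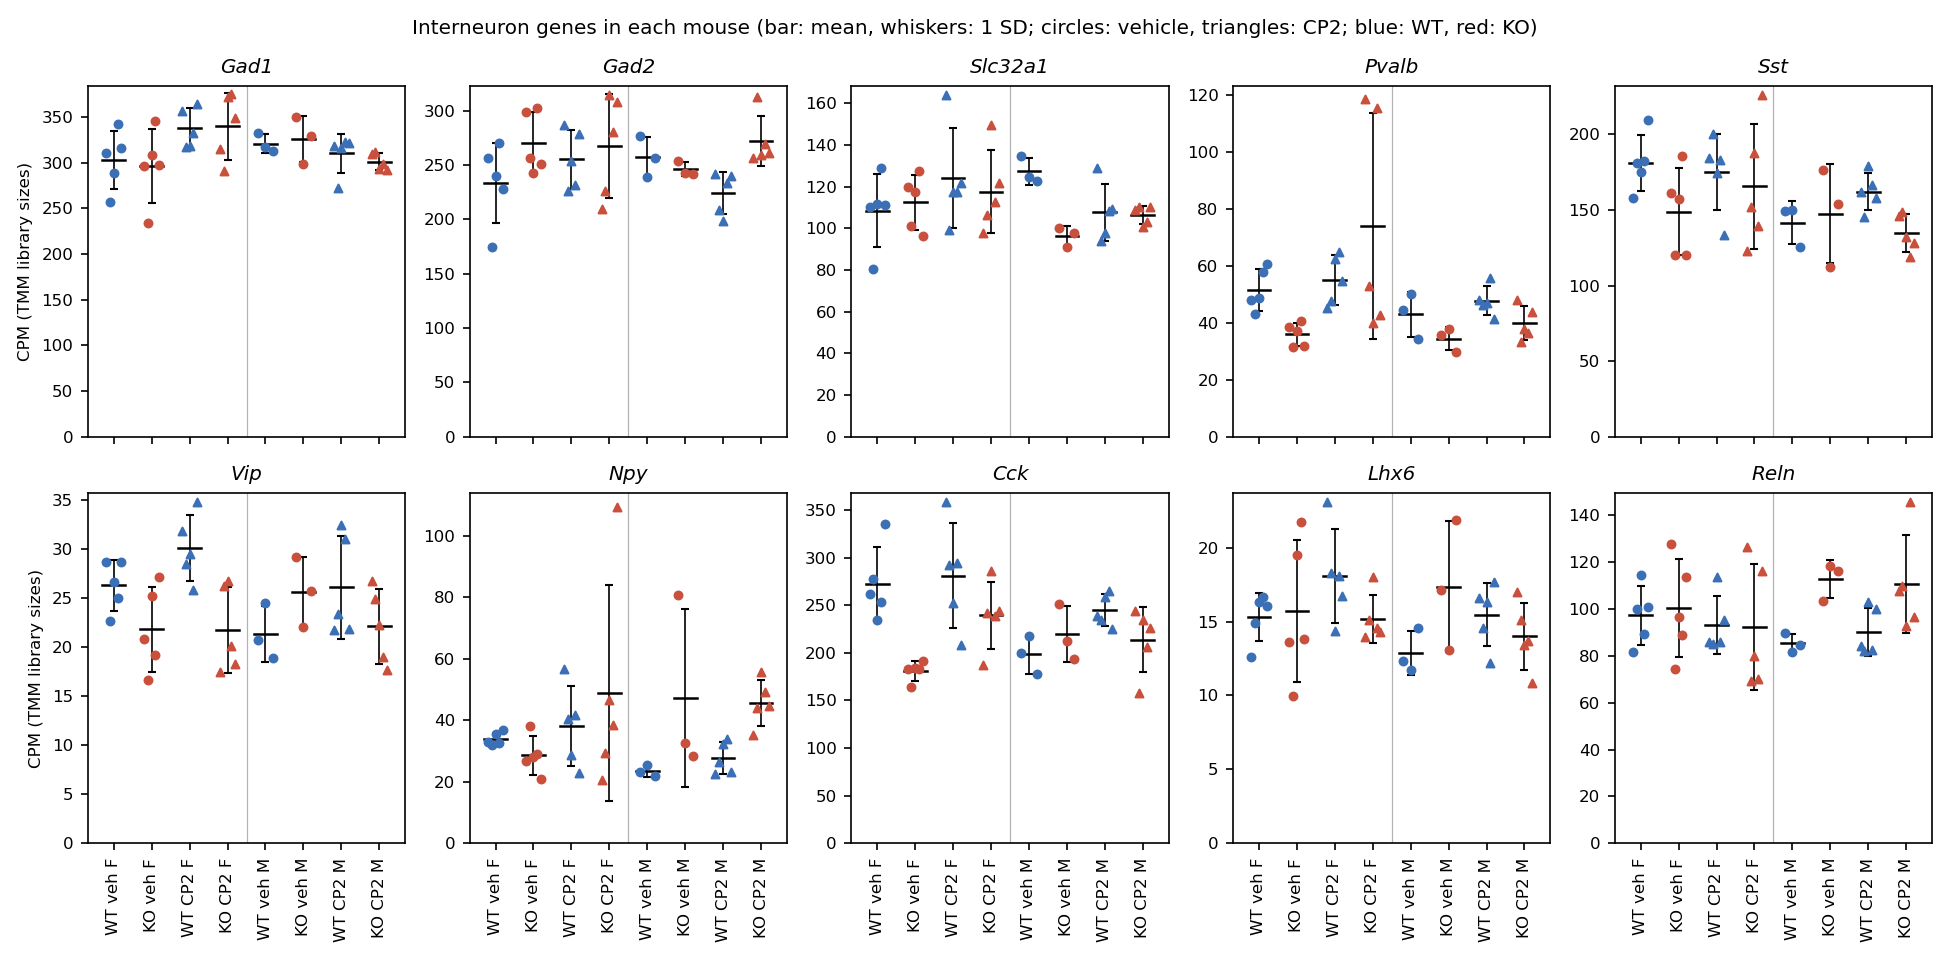
CPM of each member in each of the 36 mice, by group (horizontal axis: WT or KO, vehicle or CP2, letter F or M; bars: group mean, whiskers: 1 SD). KO vehicle F lies below WT vehicle F for Cck and Pvalb, without overlap, as for 4.7% of all genes in either direction. In KO CP2 F, 2 mice stand at 116 and 119 CPM for Pvalb.

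Few of the 10 genes passed the test in any comparison. A gene is called where the Benjamini-Hochberg adjusted p of edgeR's quasi-likelihood test, over all 25601 genes, was under 0.05. Between KO and WT on vehicle, averaged over F and M, 0 of 10 members were called against 6.67% of all genes, 2.87% higher and 3.8% lower (2 members had an unadjusted p under 0.05, and DESeq2 called 0). Within F, 1 member was called (Cck, lower), against 4.96% of all genes, with 2.94% lower. Within M, 0 were called against 0.516% (3 with an unadjusted p under 0.05; DESeq2 called 0). Under CP2, 1 member was called between KO and WT in the average (Vip, lower), against 11.6% of all genes (5.54% higher, 6.07% lower). Within F under CP2, 0 members were called against 2% (1 with an unadjusted p under 0.05; DESeq2 called 1, Vip). Within M under CP2, 0 were called against 9.99% (2 with an unadjusted p under 0.05; DESeq2 called 0). With 10 genes, counts of 0 or 1 are close to these background shares.

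CP2 against vehicle in KO gave 1 called member in the average (Pvalb, higher), against 3.91% of all genes (2.08% higher, 1.84% lower). Within F it gave 0 against 0.0859% (4 with an unadjusted p under 0.05; DESeq2 called 1, Pvalb), and within M 0 against 5.1% (0 with an unadjusted p under 0.05; DESeq2 called 0). In WT, CP2 called 0 members and 0 genes in all (0%) by edgeR and by DESeq2 in the average, within F and within M. In those 3 comparisons 2, 0 and 1 members had an unadjusted p under 0.05, and 1031, 679 and 777 genes did. The interaction of genotype and CP2 called 0 members against 0.715% of all genes (3 with an unadjusted p under 0.05; DESeq2 called 0). In F, no member had groups without overlap for KO against WT under CP2, CP2 in KO or CP2 in WT, against 3.02%, 1.04% and 0.605% of all genes. F against M over all conditions called 0 against 10.3% (3 with an unadjusted p under 0.05; DESeq2 called 1, Pvalb). F minus M of the KO effect under CP2 and of the CP2 effect in KO called 0 members each, against 0.82% and 0.691% of all genes (1 and 3 with an unadjusted p under 0.05; DESeq2 called 0 in each). The comparison of CP2 with vehicle in KO shares its mice with both genotype comparisons.

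**Figure D2:**
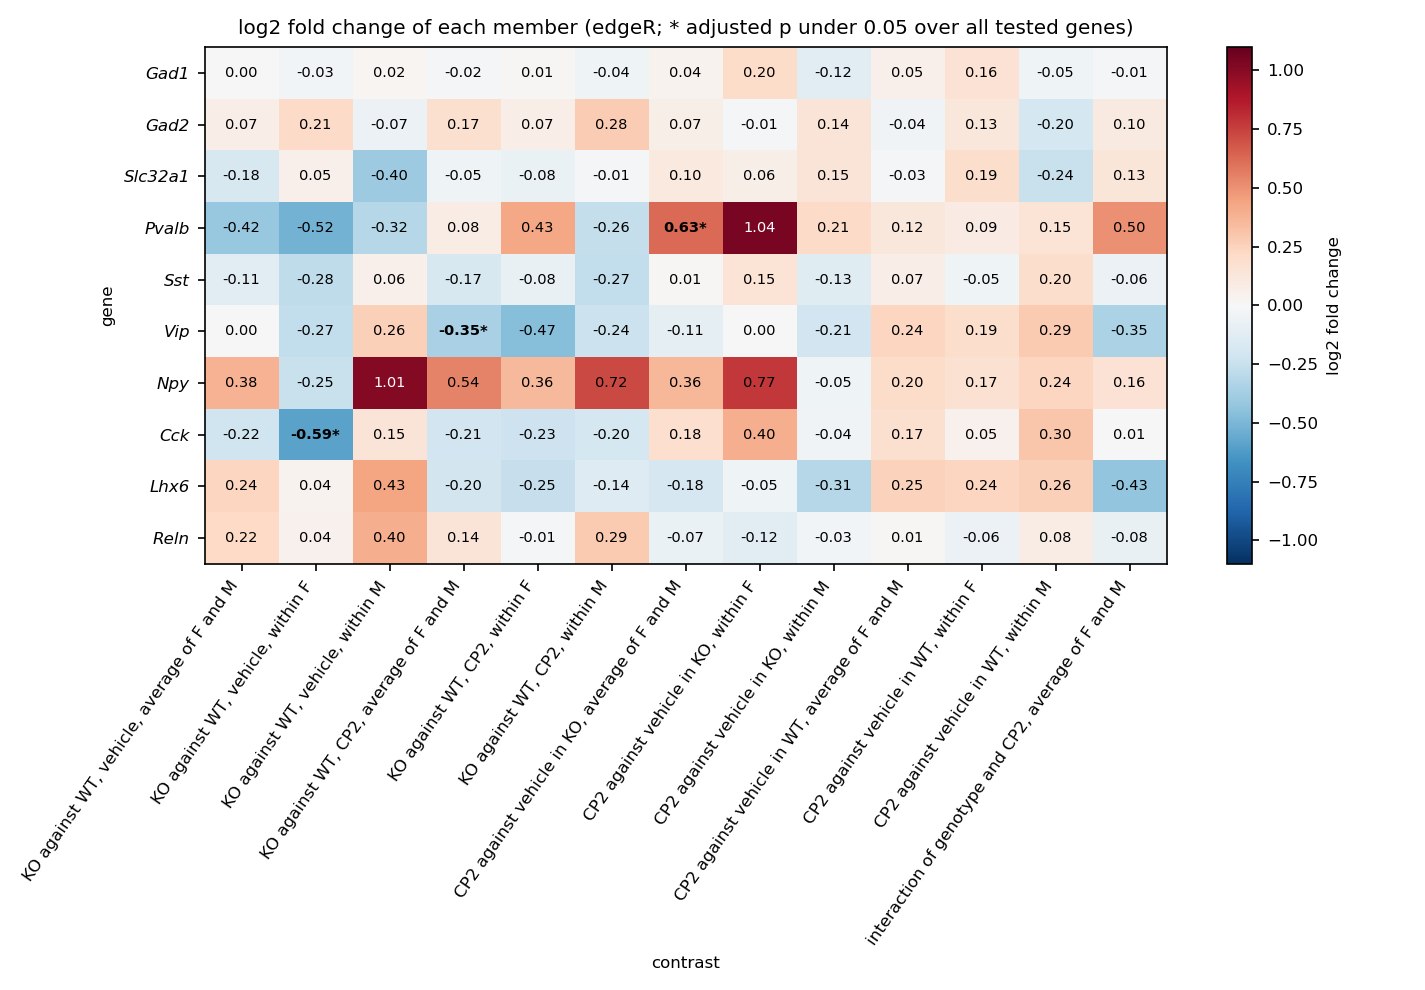
log2 fold change of each member (rows) in 13 contrasts (columns), colour and number giving the same value, with * where the adjusted p was under 0.05. The 3 starred cells are Cck at -0.59, Vip at -0.35 and Pvalb at 0.63.

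Gad1, Gad2 and Slc32a1, the genes of GABA synthesis and vesicle loading, were not called in any of the 17 contrasts. Gad1 had a log2 difference of -0.004 between KO and WT on vehicle in the average (95% interval -0.13 to 0.13), and -0.02 under CP2 (-0.13 to 0.10). Gad2 differed by 0.07 (-0.10 to 0.24) on vehicle and 0.17 (0.03 to 0.32) under CP2, with an adjusted p of 0.117 in the latter. The latter was called without L201 (0.21, adjusted p 0.0379) and without L201 and L233 (0.21, adjusted p 0.0481). In M under CP2, the 5 KO mice had 257.02, 312.6, 259.2, 269.6 and 261.5 CPM of Gad2 and the 5 WT mice 241.5, 208.9, 198.9, 233.5 and 240.1 CPM. All 5 KO values lay above all 5 WT values, and 11.1% of all genes had groups that did not overlap, in either direction, in that comparison. The difference was 0.28 (SE 0.10, adjusted p 0.0788), and without single libraries 0.22 to 0.30. It was called when only the M libraries were fitted (adjusted p 0.00586) and when L277, a WT vehicle F library, was left out (adjusted p 0.0427).

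Slc32a1 was low in KO vehicle M. The 3 KO mice had 100, 91.1 and 97.7 CPM and the 3 WT mice 135, 125 and 123 CPM, without overlap, as for 20.9% of all genes, in either direction, in that comparison of 3 with 3. The log2 difference was -0.40 (SE 0.15, adjusted p 0.214), and it was called when only M libraries were fitted (adjusted p 0.0133). In F the KO and WT values overlapped and the difference was 0.05 (SE 0.11). The difference between the letters, 0.45 (SE 0.19), was not called (adjusted p 0.475). The highest Slc32a1 values of the series, 164 CPM in L228 and 150 CPM in L227, were in the 2 libraries with the most striatal marker RNA, and L227 also had the highest Gad2 (315 CPM). Their part in the spread of these genes was not tested beyond leaving both out, which gave no member a call it lacked in the comparisons of genotype. With CP2 in KO M, all 5 CP2 mice lay above all 3 vehicle mice for Gad2 and for Slc32a1, as for 15.3% of all genes in either direction, with differences of 0.14 (SE 0.12) and 0.15 (SE 0.13) that were not called. In a model with the percentage of reads outside genes these differences were -0.084 and -0.082.

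Around these 3 genes, 8 genes of GABA metabolism and transport were followed. Their median log2 difference between KO and WT on vehicle was -0.13, against 0.02 for all genes. Of the 8, 2 were called lower and 0 higher, against 3.8% and 2.87% of all genes. Both called genes encode enzymes that break GABA down. Abat, GABA transaminase, fell by 0.26 in log2 units (SE 0.07, adjusted p 0.00986), and Aldh5a1, succinate semialdehyde dehydrogenase, fell by 0.25 (SE 0.05, adjusted p 0.00259). Abat stood at 281.4 ± 29.4 CPM in KO vehicle M (SD, n = 3) against 403 ± 50.3 in WT vehicle M (n = 3), and at 380 ± 39.4 against 383 ± 29.1 CPM in F (n = 5 each). Aldh5a1 was at 99.5 ± 6.76 against 110 ± 5.43 CPM in F and at 87.4 ± 9.29 against 112 ± 10.5 CPM in M. Both calls ended in a model with the percentage of reads that fell outside genes (adjusted p 0.261 and 0.106), and Abat's ended without L285, a WT vehicle M library (adjusted p 0.0681). Aldh5a1 overlaps 2 antisense transcripts at exons. With CP2 in KO, 1 of the 8 was called higher and 0 lower, against 2.08% and 1.84% of all genes (median 0.10, all genes 0.00). Abat rose by 0.22 (SE 0.06, adjusted p 0.034). That call held in 37 of 46 alternatives. It ended in the model with reads outside genes (0.10, adjusted p 0.8) and without any 1 of 8 libraries, L291 and L310 among them. That model called 0 genes in all in this comparison, in place of 1002. Within F 0 of 8 were called, against 0.0859% of all genes, and Abat differed by -0.03 (SE 0.08). Within M 2 of 8 were called higher, against 5.1% of all genes called in either direction. Abat rose by 0.47 (SE 0.09, adjusted p 0.00224), from 281.4 to 389 CPM, and Glul, glutamine synthetase, by 0.32 (SE 0.08, adjusted p 0.0111). F minus M of the CP2 effect was itself called for Abat, at -0.50 (SE 0.12, adjusted p 0.0473), and for Glul, at -0.44 (SE 0.10, adjusted p 0.0388). On vehicle, too, Abat was called lower in KO within M (-0.52, SE 0.10, adjusted p 0.0121) and not within F (-0.01, SE 0.08), with a difference of 0.51 between the letters that was not called (adjusted p 0.131).

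Pvalb, the calcium buffer of fast-spiking interneurons, was lower in KO on vehicle in F. The 5 KO vehicle F mice had 38.4, 31.6, 37.1, 40.8 and 31.8 CPM, and the 5 WT vehicle F mice 48.0, 43.1, 48.5, 57.9 and 60.7 CPM. All KO values lay below all WT values, and 4.7% of all genes had groups without overlap, in either direction, in that comparison. The log2 difference was -0.52 (SE 0.22), and its adjusted p of 0.167 was not past the threshold. In M the 3 KO mice had 35.6, 38.0 and 29.9 CPM and the 3 WT mice 44.5, 50.0 and 34.3 CPM, which overlapped, with a difference of -0.32 (SE 0.28).

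Under CP2 the KO F group was split. L201 had 119 CPM and L233 116 CPM, while L216, L227 and L234 had 52.9, 40.0 and 42.8 CPM. The 5 WT CP2 F mice had 45.3, 47.5, 62.5, 65.0 and 54.8 CPM. In M the KO CP2 mice had 48.1, 33.1, 37.8, 36.5 and 43.9 CPM and the WT CP2 mice 48.1, 46.4, 47.0, 55.7 and 41.4 CPM. L201 and L233 were thus above every other library of the series, whose highest value was 65.0 CPM. These are also the libraries with the most cerebellar marker RNA. Pcp2, a Purkinje cell gene, was at 37.7 CPM in L201 and 27.6 CPM in L233, and at most 3.02 CPM elsewhere. Gabra6, a cerebellar granule cell gene, was at 52.2 and 7.62 CPM and at most 2.96 CPM elsewhere.

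**Figure D3:**
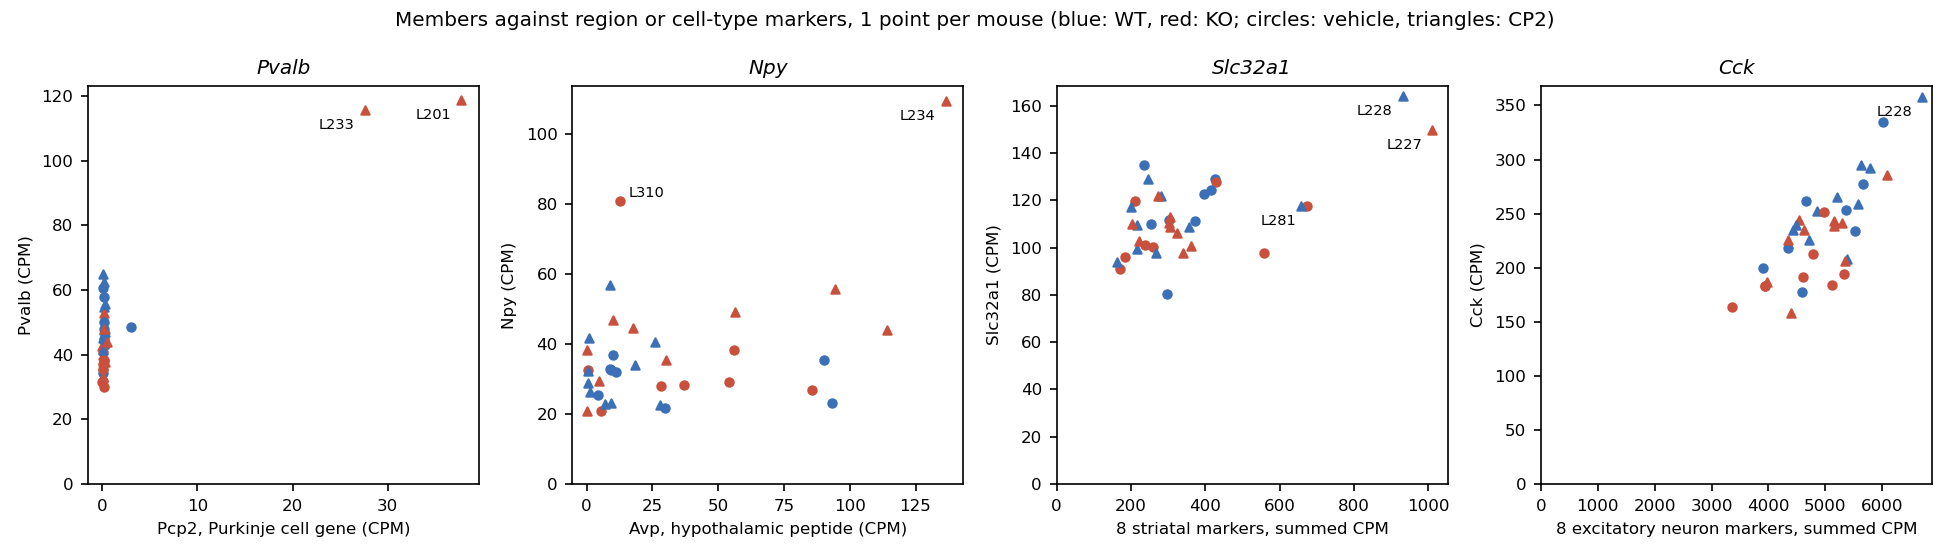
Members on the vertical axis against regional or cell-type markers on the horizontal axis, both in CPM, 1 point per mouse. The 2 libraries with the most Pcp2 have the most Pvalb, L234 has the most Avp and the most Npy, and L227 and L228 have the most striatal RNA and the most Slc32a1. Avp is 1 of 5 hypothalamic markers, whose sum was highest in WT vehicle M.

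Across all libraries, Pvalb rose with CP2 in KO by a log2 value of 0.63 in the average (SE 0.17, adjusted p 0.0326). It differed by 1.04 within F (SE 0.22, adjusted p 0.0526) and by 0.21 within M (SE 0.25, adjusted p 0.712). The difference of these, 0.83 (SE 0.33), was not called (adjusted p 0.226). Without L201 and L233 the average was 0.27 (SE 0.10, adjusted p 0.0918) and the call ended. The call was also lost when any 1 of 8 libraries was left out: L233, L279, L281, L266, L299, L310, L319 and L322. It ended too in the models with reads outside genes (0.74, adjusted p 0.344) and with the hippocampal CA score (0.50, adjusted p 0.0611). The former model called 0 of 25601 genes and the latter 1475 in that comparison, in place of 1002. Within F the Pvalb call was gained when L216, L227 or L234 was left out, with values from 1.14 to 1.198.

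Without those 2 libraries the genotype comparisons also moved. On vehicle the compared mice stayed the same, and all groups share 1 estimate of the spread. Under CP2 the libraries left out were themselves 2 of the 5 KO mice in F. Pvalb was then called lower in KO on vehicle, by -0.42 in the average (SE 0.10, adjusted p 0.00763) and -0.52 within F (SE 0.12, adjusted p 0.00988). Under CP2 the average changed sign, from 0.08 (SE 0.15) to -0.27 (SE 0.09, adjusted p 0.0495), and within F it went from 0.43 to -0.28 (SE 0.14, adjusted p 0.354). These values come from an alternative chosen after the data were seen.

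**Figure D4:**
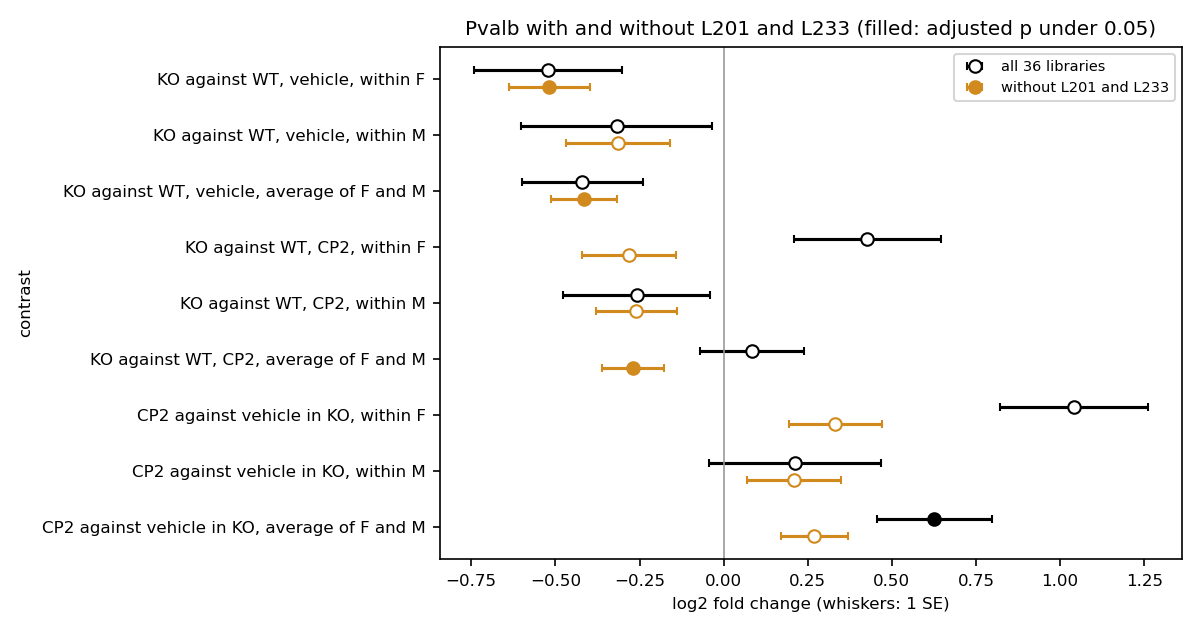
Pvalb log2 fold change (horizontal axis, whiskers 1 SE) in 9 contrasts with all 36 libraries and without L201 and L233, filled where the adjusted p was under 0.05. KO against WT on vehicle stays at -0.52 within F, while KO against WT under CP2 within F goes from 0.43 to -0.28.

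Among 10 further genes of parvalbumin cells, 2 were called lower and 0 higher between KO and WT on vehicle (median -0.15, all genes 0.02). Of all genes, 3.8% were called lower and 2.87% higher. Kcnc1, a fast potassium channel, fell by 0.25 in log2 units (SE 0.06, adjusted p 0.0142), from 244 ± 28.9 to 206 ± 15.8 CPM in F and from 273 ± 8.96 to 229 ± 14.1 CPM in M. Its adjusted p was 0.0637 in the model with reads outside genes. Cox6a2, a subunit of cytochrome c oxidase, fell by 0.54 (SE 0.17, adjusted p 0.0486), from 7.43 ± 0.573 to 4.91 ± 1.24 CPM in F and from 5.28 ± 0.450 to 3.78 ± 0.769 CPM in M. The Cox6a2 call held in 16 of 46 alternatives, and the gene shares exon bases with Itgad on the other strand. Under CP2 in the average 1 of the 10 was called, against 11.6% of all genes (median of the list -0.10, all genes 0.01). It was Cox6a2, lower by 0.45 (SE 0.15, adjusted p 0.039). That call held in 32 of 46 alternatives and was lost without any 1 of 12 libraries, down to a log2 difference of -0.33 (adjusted p 0.134) without L272. Without L201 and L233 its adjusted p was 0.154. Within M under CP2, where 9.99% of all genes were called, the 1 called gene was Kcnc1, at -0.24 (SE 0.08, adjusted p 0.0409). Within F 0 of 10 were called, against 2% of all genes, and Kcnc1 was at -0.06 (SE 0.08). CP2 against vehicle in KO called 0 of the 10, against 3.91% of all genes.

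Sst, which encodes somatostatin, was not called in any contrast. The 5 KO vehicle F mice had 161, 120, 157, 186 and 120 CPM and the 5 WT vehicle F mice 158, 181, 175, 182 and 209 CPM, which overlapped. The difference was -0.28 (SE 0.14, adjusted p 0.25). Under CP2 the averaged difference was -0.17 (SE 0.10, 95% interval -0.38 to 0.03). F exceeded M by 0.19 (SE 0.08, adjusted p 0.0987), and by 0.25 with a call (adjusted p 0.0168) without L201 and L233. The call was also made without L201 alone (0.22) or without L311 (0.22).

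Of 11 further genes of somatostatin cells, 1 was called, the peptide gene Cort, which encodes cortistatin, a relative of somatostatin. Under CP2 Cort was lower in KO, with a log2 difference of -1.63 (SE 0.24, adjusted p 2.5e-05). In F it stood at 2.32 ± 1.51 CPM in KO and 6.13 ± 1.95 CPM in WT (SD, n = 5 each). In M the KO CP2 mice lay between 0.967 and 2.19 CPM and the WT CP2 mice between 4.42 and 5.79 CPM. These groups did not overlap, as for 11.1% of all genes in either direction. The call held in all 46 alternatives, with values from -1.78 to -1.44. On vehicle the difference was -0.89 (SE 0.28, adjusted p 0.045), from 5.90 ± 0.974 to 2.92 ± 1.32 CPM in F and from 3.75 ± 0.788 to 2.20 ± 0.970 CPM in M, and this call held in 21 of 46 alternatives. The median of the 11 genes was 0.00 on vehicle and 0.15 under CP2, against 0.02 and 0.01 for all genes. In each of these averages 1 of 11 was called lower, against 3.8% and 6.07% of all genes. CP2 against vehicle in KO called 0 of the 11, against 3.91% of all genes.

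Npy, which encodes neuropeptide Y, was the least steady member. The KO CP2 F mice had 20.7, 29.5, 46.7, 38.4 and 109 CPM, and the WT CP2 F mice 56.8, 40.6, 28.9, 41.8 and 23.0 CPM. The 109 CPM came from L234, which also had the most Avp of the series (136 CPM), a hypothalamic peptide gene. Avp is 1 of 5 hypothalamic markers, whose sum was highest in WT vehicle M (271 CPM), where Npy was at 21.9 to 25.5 CPM. Without L234 the difference between KO and WT under CP2 within F went from 0.36 (SE 0.31) to -0.17 (SE 0.26). In M the KO CP2 mice had 35.4, 43.9, 55.7, 49.3 and 44.6 CPM and the WT CP2 mice 22.7, 26.3, 32.4, 33.9 and 23.2 CPM. These groups did not overlap, as for 11.1% of all genes in either direction, and the difference was 0.72 (SE 0.32, adjusted p 0.155). The hypothalamic markers summed to 66.6 to 234.1 CPM in those KO mice and to 34.0 to 108 CPM in those WT mice, and their part in the result was not tested.

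On vehicle in M, Npy was at 80.8, 32.7 and 28.4 CPM in KO and at 23.2, 25.5 and 21.9 CPM in WT. The groups did not overlap, as for 20.9% of all genes in either direction, and 80.8 CPM came from 1 library, L310. The difference was 1.01 (SE 0.41, adjusted p 0.285), with 0.38 (SE 0.41) without L310 and up to 1.26 without another library. The hypothalamic markers summed to 17.0 to 59.2 CPM in those KO mice, L310 among them, and to 37.1 to 271 CPM in those WT mice. In F on vehicle the Npy values overlapped (KO 26.8, 38.3, 28.1, 29.0 and 20.9 CPM; WT 32.9, 31.9, 35.5, 32.5 and 36.8 CPM), with a difference of -0.25 (SE 0.31). The averaged difference under CP2 was 0.54 (SE 0.22, adjusted p 0.118), and it was called without L201 (0.64, adjusted p 0.046) and without L201 and L233 (0.71, adjusted p 0.0297).

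Vip, a peptide gene of interneurons that act mainly on other interneurons, was lower in KO than in WT under CP2. The 5 KO CP2 F mice had 17.4, 26.3, 26.7, 20.1 and 18.3 CPM and the 5 WT CP2 F mice 31.9, 28.5, 29.6, 25.9 and 34.9 CPM. In M the KO CP2 mice had 26.8, 25.0, 22.2, 19.0 and 17.7 CPM and the WT CP2 mice 21.7, 23.4, 32.5, 31.1 and 21.8 CPM. In F 2 of 5 KO values lay above the lowest WT value, and in M the groups overlapped widely.

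The averaged log2 difference of Vip was -0.35 (SE 0.10, adjusted p 0.0163), a ratio of 0.783. Within F it was -0.47 (SE 0.14, adjusted p 0.0733) and within M -0.24 (SE 0.14, adjusted p 0.316), and the difference between the letters, -0.23 (SE 0.20), was not called (adjusted p 0.641). Leaving out single libraries gave -0.39 to -0.30, called each time. Without L201 and L233 together the value was -0.29 (SE 0.11, adjusted p 0.0699) and not called. On vehicle the averaged difference was 0.00 (SE 0.11, 95% interval -0.24 to 0.23), with -0.27 in F and 0.26 in M. The interaction of genotype and CP2 was -0.35 (SE 0.15, adjusted p 0.269), so that a difference between the vehicle and CP2 comparisons was not shown.

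Of 7 further genes of Vip cells, 1 was called higher on vehicle and 0 lower, against 2.87% and 3.8% of all genes (median 0.06, all genes 0.02). Htr3a, a serotonin receptor channel subunit, rose by 0.68 in log2 units (SE 0.13, adjusted p 0.00087), and the call held in all 46 alternatives. It went from 6.35 ± 1.23 CPM in WT to 7.998 ± 1.46 CPM in KO in F (n = 5 each) and from 4.47 ± 0.773 to 9.08 ± 0.773 CPM in M (n = 3 each). Under CP2 0 of 7 were called in the average, against 11.6% of all genes (median 0.23, all genes 0.01). Within M 1 was called, against 9.99% of all genes, Htr3a again (0.47, SE 0.16, adjusted p 0.0481). With CP2 in KO 0 of 7 were called, against 3.91% of all genes.

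Cck, which encodes cholecystokinin, was lower in KO on vehicle in F. The 5 KO vehicle F mice had 183, 164, 184, 183 and 192 CPM and the 5 WT vehicle F mice 261.2, 277.4, 234.02, 253.4 and 335.1 CPM. All KO values lay below all WT values, and 4.7% of all genes had groups without overlap, in either direction, in that comparison. The log2 difference was -0.59 (SE 0.12, adjusted p 0.00351), a ratio of 0.666, and leaving out single libraries gave -0.63 to -0.50, called each time. In M the 3 KO mice had 251.6, 212.5 and 194.0 CPM and the 3 WT mice 200, 218 and 177 CPM, which overlapped, with a difference of 0.15 (SE 0.15, adjusted p 0.788). The difference between F and M was -0.73 (SE 0.19, adjusted p 0.148; 0 of 10 members called against 0.102% of all genes, 4 with an unadjusted p under 0.05). It was called by DESeq2 (adjusted p 0.0297) and with a hippocampal CA or striatal marker score as covariate (adjusted p 0.0151 and 0.0407).

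Some other measures moved with Cck in F. The 8 excitatory neuron markers summed to 3352 to 5116 CPM in KO vehicle F and to 4661 to 6013 CPM in WT vehicle F. Of the 8, 2 were called lower, against 2.94% of all genes (median -0.33). The hippocampal CA score, the mean log2 CPM of 5 markers, was 3.71 to 4.21 in the KO mice and 4.31 to 4.95 in the WT mice. The summed CPM of the same 5 markers overlapped, at 215.2 to 275.1 in KO vehicle F and 227.7 to 266.6 in WT vehicle F. The medians of these sums were close, at 230.5 and 235.3 CPM, so the lower score was not matched by a lower sum. Of the 5 markers, 2 were called lower, against the same 2.94% of all genes (median -0.65). In F, reads outside genes made up 6.19% to 11.7% of the KO vehicle libraries and 5.09% to 7.04% of the WT vehicle libraries. In a model with that percentage the Cck difference was -0.40 (SE 0.13, adjusted p 0.143) and not called, while 156 genes were called in all in place of 1270. With the hippocampal CA score in the model the difference was -0.76 (SE 0.12, adjusted p 0.00025), and with the striatal score -0.57 (SE 0.11, adjusted p 0.00173), both called. The part of other cell types was not tested.

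Under CP2, Cck overlapped between KO and WT in both letters. The KO CP2 F mice had 187, 242, 286, 239 and 244 CPM and the WT CP2 F mice 358.0, 292.1, 252.4, 294.6 and 208.2 CPM. The averaged difference was -0.21 (SE 0.08, adjusted p 0.0955), and it was called in the model with reads outside genes (-0.29, adjusted p 0.0138), with either regional score, and without L311 (-0.26, adjusted p 0.0262). With CP2 in KO in F, Cck differed by 0.40 (SE 0.12, adjusted p 0.15). With CP2 in WT in M, the 5 CP2 mice (239.1, 234.8, 258.7, 265.3 and 225.4 CPM) lay above the 3 vehicle mice. Groups did not overlap, in either direction, for 4.54% of all genes, and the difference was 0.30 (SE 0.14, adjusted p 1).

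Of 9 genes of neurogliaform and Cck cells, 0 were called on vehicle in the average, against 6.67% of all genes (median -0.01). Within M 1 was called, against 0.516% of all genes: Cnr1, the cannabinoid receptor of Cck cells, higher by 0.46 (SE 0.11, adjusted p 0.0471). Under CP2 1 was called higher and 1 lower, against 5.54% and 6.07% of all genes (median 0.10, all genes 0.01). Lamp5, a membrane protein gene of neurogliaform cells, fell by 0.63 in log2 units (SE 0.17, adjusted p 0.0122), from 107 ± 27.7 to 69.6 ± 27.5 CPM in F and from 97.8 ± 22.4 to 62.7 ± 12.5 CPM in M, and the call held in all 46 alternatives. Slc17a8, a vesicular glutamate transporter found in a set of Cck cells, was higher by 0.51 in the average (SE 0.16, adjusted p 0.0348), with 5.49 ± 0.646 CPM in WT and 5.75 ± 1.24 in KO in F and 3.65 ± 1.03 against 7.06 ± 3.00 CPM in M. It was called within M (0.95, SE 0.23, adjusted p 0.00585) and not within F (0.07, SE 0.23), and the difference between the letters, -0.88 (SE 0.33), was not called (adjusted p 0.182). The averaged call held in 36 of 46 alternatives, with 0.36 (adjusted p 0.123) without L291. In KO, Slc17a8 rose with CP2 by 0.73 (SE 0.18, adjusted p 0.0157), from 3.45 ± 1.04 to 5.75 ± 1.24 CPM in F and from 4.29 ± 1.03 to 7.06 ± 3.00 CPM in M. In the model with reads outside genes that adjusted p was 0.419, and without L322 it was 0.0764. Those fits called 0 and 190 genes in all, in place of 1002.

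Lhx6 was low throughout, between 9.95 and 23.1 CPM. On vehicle the averaged difference between KO and WT was 0.24 (SE 0.13, 95% interval -0.02 to 0.49) and under CP2 -0.20 (SE 0.11, -0.42 to 0.02). The interaction was -0.43 (SE 0.17, adjusted p 0.207). None of 15 transcription factors of the interneuron lineage was called in any of the 17 contrasts, which called 0% to 11.6% of all genes. Their median difference on vehicle was 0.03, against 0.02 for all genes.

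Reln, which encodes the secreted protein reelin, was not called. In M on vehicle the 3 KO mice had 103, 118 and 116 CPM and the 3 WT mice 89.8, 81.8 and 84.4 CPM, without overlap, as for 20.9% of all genes in either direction, and the difference was 0.40 (SE 0.20, adjusted p 0.413). In F on vehicle it was 0.04 (SE 0.15) with overlapping values. In M under CP2 the difference was 0.29 (SE 0.15, adjusted p 0.25), and it was called when only M libraries were fitted (adjusted p 0.0498).

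Of 16 receptor and signalling genes for these peptides and for reelin, 1 was called on vehicle, higher, against 2.87% of all genes (median 0.01, all genes 0.02). Dab1, the adaptor inside the cell for reelin, rose by 0.24 (SE 0.07, adjusted p 0.0406), with 85.8 ± 3.63 CPM in WT and 95.7 ± 16.4 in KO in F, and 78.1 ± 8.82 against 97.2 ± 8.26 CPM in M. The call held in 37 of 46 alternatives. Under CP2, 2 of 16 were called lower and 0 higher in the average (median -0.09, all genes 0.01). Of all genes, 11.6% were called there, 6.07% lower and 5.54% higher, and the count of 2 is near the share called either way. Both called genes were receptors for neuropeptide Y. Npy1r fell by 0.35 (SE 0.08, adjusted p 0.00424), from 25.6 ± 3.82 to 19.1 ± 2.61 CPM in F and from 24.7 ± 2.70 to 20.4 ± 2.57 CPM in M. Npy5r fell by 0.53 (SE 0.14, adjusted p 0.011), from 4.77 ± 1.24 to 3.43 ± 1.002 CPM in F and from 4.55 ± 0.619 to 3.05 ± 0.364 CPM in M. Both calls held in all 46 alternatives. Within F the 1 called gene was Npy1r, and within M it was Lrp8, a reelin receptor, against 2% and 9.99% of all genes. Lrp8 was lower in M with a log2 difference of -0.30 (SE 0.09, adjusted p 0.0229), against 0.00 (SE 0.09) in F. The difference between the letters for Lrp8, 0.30 (SE 0.12), was not called (adjusted p 0.238). CP2 against vehicle in KO called 0 of the 16, against 3.91% of all genes.

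The members also differed in how they varied from mouse to mouse. After each group's mean was removed, Gad2 and Slc32a1 went together most closely (Pearson r 0.81 over 36 mice), then Gad1 with Slc32a1 (0.68) and with Gad2 (0.67), and Sst with Npy (0.62). Pvalb had negative values with Npy (-0.39) and Sst (-0.30), which were -0.26 and -0.09 without L201 and L233. Reln had values from -0.27 (with Cck) to 0.05 (with Pvalb). These r values are descriptions: the libraries share dissection, depth and cell makeup. Outside the list, the genes most like Cck were Myl4 (0.87), Cfl1 (0.82) and Shisa4 (0.82), and those most like Npy were Prss23 (0.81), Pabpc4 (0.80) and Pmepa1 (0.79). The nearest to Pvalb were Tspan9 (0.78), Acot13 (0.76) and Inpp5a (0.73), and without L201 and L233 the nearest 2 stayed Tspan9 (0.71) and Acot13 (0.70). The nearest to Gad2 was Slc32a1, followed by Cluh (0.75) and Mboat7 (0.73), and after Gad2 the nearest to Slc32a1 were Retreg2 (0.76) and Shb (0.74). For Gad1 they were Gphn, the scaffold of inhibitory synapses (0.70), Usp46 (0.69) and Cant1 (0.69). For Sst they were Ldha, Thop1 and C2cd4c (0.74 each), and for Vip Fam81a (0.73), Egln1 (0.68) and Ubl4a (0.67). Near Lhx6 were Tbc1d22a (0.77) and Kcnh3 (0.73), and for Reln they were Apaf1 (0.74), Camk2d (0.73) and Trp53i11 (0.72).

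**Figure D5:**
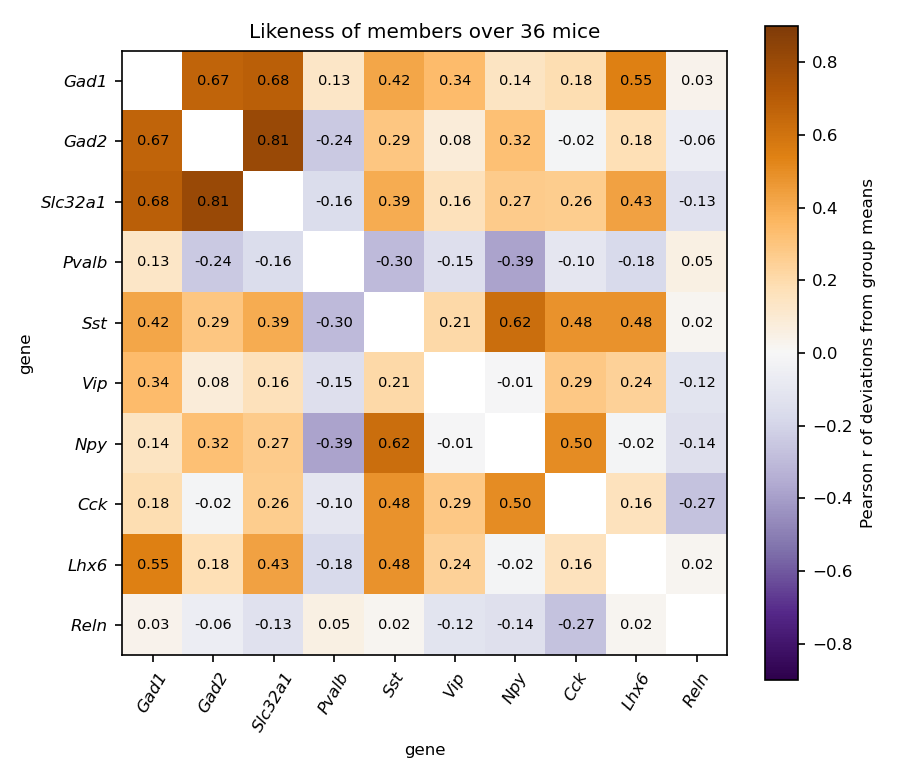
Pearson r between members of their deviations from the group means in log2 CPM, over 36 mice, with both axes listing the members. Gad1, Gad2 and Slc32a1 form a block of 0.67 to 0.81, and Pvalb has negative values with Sst and Npy.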

How the data were processed

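The deposited table holds raw counts per Ensembl gene for 36 libraries, made by the authors. Per the submitters' processing notes STAR, HTSeq and the build GRCm39 were used, and their versions, the annotation release and the strandedness are not given in the sources used here. Without strand, reads of antisense or overlapping genes (Gad1, Slc32a1, Reln, Aldh5a1 and Cox6a2 have such partners) cannot be told apart. Per the labels' protocols, a Trizol-based kit gave total RNA, from which polyA RNA was enriched. The table ends in 5 HTSeq summary rows, which were kept out of library sizes: reads outside genes were 5.09% to 13.2% of a library (median 7.61%), ambiguous reads 1.79% to 2.17% and reads with several matches 4.05% to 5.91%. Symbols came from GENCODE M21 and matched 52073 of 56980 identifiers (91.4%, with 97.2% of counts). The same annotation, of GRCm38, gave the exon lengths behind levels per kilobase. Promoters are from RefSeq on GRCm38.p6. As the counts are on another build, no position was taken from one build to the other.

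Libraries held 46124548 to 88559920 gene counts (median 54749039.5). They were tested with edgeR 4.0.16 in R 4.3.3 (filterByExpr, TMM, robust quasi-likelihood fit, 1 coefficient for each of 8 groups, 25601 genes) in 17 contrasts, with Benjamini-Hochberg adjustment over all tested genes and calls under 0.05. Intervals are 95%. On data simulated for KO against WT on vehicle within F (24483 genes), 193 of 200 genes changed 3-fold were called (96.5%), with 6 unchanged genes. Smaller changes and changes in M were not simulated, so this share does not apply to the smaller differences of the members. For likeness, log2 CPM with a prior count of 2 was used, over genes with a mean of at least 5 CPM. Role genes are named where called, with a mean of at least 1 CPM, up to 3 each way per averaged contrast. Likeness names the 3 nearest genes of each member, of which 1 is not reported here. Glul, Lrp8 and Cnr1, called within a letter and not in an average, were named after their values were seen. Alternatives were 3 other scalings or tests (median-of-ratios and upper-quartile factors, and DESeq2 1.42.0), no filter or a mean CPM of 1, fits within a letter, 3 covariates, each library left out, and 2 pairs of libraries left out, the last chosen after the data were seen. The members and the gene lists were chosen with earlier results of these data known. The labels do not say whether litters or cages were shared, and p-values measure only the spread between these mice.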

Additional observations from a re-analysis of the deposited data

Results flagged for a closer look

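Among the 60 sets of 1 member in 1 group of 5 mice, 3 held a mouse whose distance to the next one was large for the spread of the group. Chance gives such a value in about 1 in 20 groups. Gad1 in WT CP2 M was lowest in L262, at 272.04 CPM, with the next mouse at 316 CPM. Gad2 in KO CP2 M was highest in L291, at 313 CPM, with the next mouse at 270 CPM, and L291 is the M library with 47.2 CPM of Xist. Lhx6 in KO CP2 F was highest in L227, at 18.0 CPM, with the next mouse at 15.1 CPM. Of 40 differences of differences tested for the members (the interaction of genotype and CP2, and F minus M), 0 were called by edgeR and 11 had an unadjusted p under 0.05. DESeq2 called 1 of them, Cck in the difference of the KO effect on vehicle between F and M.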

How the results depend on the processing

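No paired analysis was possible because no title number is shared between groups. Of 1610 member values recomputed with all libraries or without a pair of them, 13 changed sign where the first value was at least 1 SE from 0 or a call was involved, and 84 others changed sign within 1 SE of 0. None of 80 group levels moved by over 1 SD on raw library totals. Of 178 counts of called members, 153 were within 1.5 times the first.

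In the model with the percentage of reads outside genes, sign changes were: CP2 in KO in the average, Slc32a1 -0.055 and Cck -0.0052; within M, Gad2 -0.084 and Slc32a1 -0.082; interaction, Slc32a1 -0.058; F minus M of the KO effect under CP2, Gad2 0.053 and Vip 0.11; F against M, Slc32a1 -0.063 and Cck -0.037. With the hippocampal CA score, Gad2 was 0.016 in F minus M of the CP2 effect in KO. Without L201 and L233, Pvalb was -0.27 and -0.28 (KO against WT under CP2, average and within F) and -0.021 (F minus M of the latter). Npy in KO against WT under CP2 within F ranged from -0.17 to 0.55 as each library was left out, negative only without L234. The cause was not tested.

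Counts of called members moved as follows. KO against WT on vehicle had 1 in the average and 2 within F without L201 and L233, 0 within F in the model with reads outside genes, and 1 within M with M libraries alone. Over all genes these fits called 1922 and 1483 of 25487, 156 of 25601 and 772 of 23493, in that order. Under CP2 the average had 2 with reads outside genes, the CA score or the striatal score and 3 without L201 and L233 (1 to 3 as each library was left out). Totals there were 2952, 3179 and 3271 of 25601 genes and 3078 of 25487. Within F under CP2 there was 1 by DESeq2 (0 to 1), with 915 of 19800 genes called. Within M there were 2 with M libraries alone (0 to 1), with 3892 of 23493 genes called. CP2 in KO had 0 in the average with reads outside genes, with the CA score or without L201 and L233 (0 to 1). The genes called in all were 0 and 1475 of 25601 and 1695 of 25487. Within F, CP2 in KO had 1 at a mean CPM of 1, with reads outside genes, with the CA score, by DESeq2 and without L227 and L228 (0 to 1). In the same order, 35 of 15423 genes, 29 and 239 of 25601, 209 of 25452 and 48 of 25480 were called. F minus M of the KO effect on vehicle had 1 with the CA score, the striatal score or by DESeq2, with 149 and 79 of 25601 and 136 of 14150 genes called. F against M had 1 at a mean CPM of 1, by DESeq2, without L201 and L233, or without L227 and L228 (0 to 1). Calls over all genes were 2268 of 15423, 3126 of 26259, 3815 of 25487 and 2224 of 25480.

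Groups of 3 limit the M comparisons on vehicle, marker RNA of other regions varied between libraries, and the 95% intervals give what these numbers of mice can show.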
